A study of Mus musculus with 12 samples.

Results

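H3K27me3 peaks called in the Ezh1 rescue library that met no peak of the wild-type lists or of the Ezh2 rescue list are described here. They were chosen from the Ezh1 rescue peak list by 1 rule. A distinct autosomal peak was kept when it did not overlap, by even 1 bp, any peak of the 4 wild-type lists or of the Ezh2 rescue list. The rule kept 45286 of 111774 distinct autosomal Ezh1 rescue peaks, or 40.5% (95% Wilson interval 40.2% to 40.8%), and left 66488 shared peaks. The Ezh1-rescue-only peaks covered 44.9 Mb of the 253 Mb under Ezh1 rescue peaks, or 17.8%, and 1.88% of the autosomal bases. The rule did not use the 4 knockout lists. Of the Ezh1-rescue-only peaks, 1886 met a knockout peak and 43400 (95.8%) met none of the other 9 lists of the series, so the name "outside all other lists" holds for those 43400.

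The study followed H3K27me3 by ChIP-seq in a c-Myc transformed clone of immortalised mouse embryonic fibroblasts (iMEFs) in which Ezh2 can be deleted. The iMEFs carried an Ezh2 flox/Δ genotype and ROSA26-CreERT2, a Cre recombinase that 4-hydroxytamoxifen (OHT) switches on. In the Ezh1 rescue (the Ezh1 pre-rescue condition of the labels) the cells stably expressed retroviral Flag-Ezh1 before OHT removed endogenous Ezh2, so the mark was measured without endogenous Ezh2 but with added Ezh1. The Ezh2 rescue was made in the same way with Flag-Ezh2, the knockout (Ezh2 -/-) had no rescue, and the wild-type cells (labelled Ezh2 WT/WT) were those in which Ezh2 had not been deleted. Experiment 2 held 1 Ezh1 rescue, 1 Ezh2 rescue, 2 knockout and 2 wild-type libraries. Experiment 1, made with another antibody and another sequencing platform, held 2 knockout and 2 wild-type libraries. All came from 1 clone, so libraries of a group are not independent lines, and each rescue was 1 library with no replicate check. The deposited lists hold positions without peak heights or read counts, and no depth can be given for single peaks. By western blot the paper found less global H3K27me3 in the Ezh1 rescue than in the Ezh2 rescue. Its ChIP-seq comparison also described the mark as uniformly weaker across the genome in the Ezh1 rescue. A peak found only in the Ezh1 rescue list is thus not a measure of a higher level of the mark. Values that follow from the rule are given as a description with no test, and every interval covers counting error only.

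EZH1 and EZH2 are the alternative catalytic subunits of Polycomb repressive complex 2 (PRC2), which methylates lysine 27 of histone H3. The trimethylated form, H3K27me3, marks silent developmental genes, where PRC2 is recruited mostly at CpG islands and the mark spreads over the neighbouring chromatin. EZH2 has the stronger methyltransferase activity and predominates in dividing cells, whereas EZH1 is also found in resting tissues.

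Short stretches of sequence show what the peaks look like at the level of bases. From the lowest, a middle and the highest decile of GC content, the widest peak was taken and its central 200 bases are given as mm9 plus strand, with CG dinucleotides in capitals. The first Ezh1-rescue-only window, chr5:86757226-86757425, lay in an intron of Tmprss11d, a transmembrane serine protease gene, in a 5750-bp peak with a GC content of 36.5%. The next, chr5:100026851-100027050, lay in an intron of A930011G23Rik in a 6100-bp peak with a GC content of 45.6%. The next, chr7:103700651-103700850, lay in an intron of Odz4, a teneurin gene of neuronal adhesion, in a 5900-bp peak with a GC content of 51.5%.
Ezh1-rescue-only, low GC: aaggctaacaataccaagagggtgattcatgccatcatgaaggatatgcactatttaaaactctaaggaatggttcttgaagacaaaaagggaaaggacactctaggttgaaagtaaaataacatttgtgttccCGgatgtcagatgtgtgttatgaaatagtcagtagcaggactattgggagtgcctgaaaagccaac
Ezh1-rescue-only, middle GC: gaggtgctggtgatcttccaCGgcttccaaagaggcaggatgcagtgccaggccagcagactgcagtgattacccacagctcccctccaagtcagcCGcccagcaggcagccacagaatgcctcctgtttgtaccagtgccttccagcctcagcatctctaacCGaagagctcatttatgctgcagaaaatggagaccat
Ezh1-rescue-only, high GC: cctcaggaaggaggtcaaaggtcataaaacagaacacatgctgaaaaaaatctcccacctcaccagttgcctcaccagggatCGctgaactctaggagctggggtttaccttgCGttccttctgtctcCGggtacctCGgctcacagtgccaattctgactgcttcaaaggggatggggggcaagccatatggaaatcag
The 3 windows held 1, 3 and 4 CG dinucleotides. The widest Ezh1-rescue-only peak centred within 2500 bp of a transcription start site (TSS) spanned 5650 bp at Ttll2, a tubulin tyrosine ligase-like gene, and its central window, chr17:7557676-7557875, is shown because it is the promoter case. It was rich in TG and held no CG.
Ezh1-rescue-only, promoter: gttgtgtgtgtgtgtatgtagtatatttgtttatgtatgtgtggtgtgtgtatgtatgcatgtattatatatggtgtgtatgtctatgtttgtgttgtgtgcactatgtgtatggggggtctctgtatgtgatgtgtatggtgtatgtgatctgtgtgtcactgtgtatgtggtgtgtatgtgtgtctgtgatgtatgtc

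Windows chosen in the same way from the shared peaks are set beside them. The first, chr14:115424826-115425025, was intergenic, 51.7 kb from Gpc5, in a 29650-bp peak with a GC content of 39.9%. The next, chr9:30785826-30786025, belonged to a 76350-bp peak over Adamts8 with a GC content of 45.2%. The last, chr8:125221001-125221200, belonged to a 154400-bp peak over Cbfa2t3 and Pabpn1l with a GC content of 53.1%.
shared, low GC: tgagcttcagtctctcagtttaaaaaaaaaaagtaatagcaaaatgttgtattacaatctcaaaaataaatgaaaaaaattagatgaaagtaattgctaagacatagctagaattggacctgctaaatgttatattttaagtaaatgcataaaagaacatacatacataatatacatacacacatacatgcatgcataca
shared, middle GC: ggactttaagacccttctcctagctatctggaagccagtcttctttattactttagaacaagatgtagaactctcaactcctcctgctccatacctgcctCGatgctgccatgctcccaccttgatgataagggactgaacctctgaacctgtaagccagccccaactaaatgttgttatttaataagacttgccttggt
shared, high GC: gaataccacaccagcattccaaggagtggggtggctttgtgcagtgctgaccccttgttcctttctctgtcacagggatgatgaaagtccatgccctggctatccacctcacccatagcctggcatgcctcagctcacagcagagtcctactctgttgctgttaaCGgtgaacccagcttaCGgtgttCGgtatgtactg
The shared windows held 0, 1 and 3 CG dinucleotides. The shared peaks around them were wider, which the rule and the choice of the widest peaks fix.

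Ezh1-rescue-only peaks were narrow. Their median width was 850 bp (quartiles 650 and 1050 bp, 95th percentile 2000 bp), against 1600 bp (quartiles 1000 and 3050 bp, 95th percentile 10100 bp) in shared peaks. The narrowest width in the list, 550 bp, was held by 12.1% of the Ezh1-rescue-only peaks and 3.02% of the shared peaks. A wide peak has more bases with which to meet another list, so width and the rule are linked. Of the Ezh1 rescue peaks under 1000 bp, 64.0% met the rule, of those from 1000 to under 2000 bp 37.5%, of those from 2000 to under 5000 bp 11.4%, and of those of 5000 bp or more 0.454%. Only 42 Ezh1-rescue-only peaks reached 5000 bp.

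**Figure D1:**
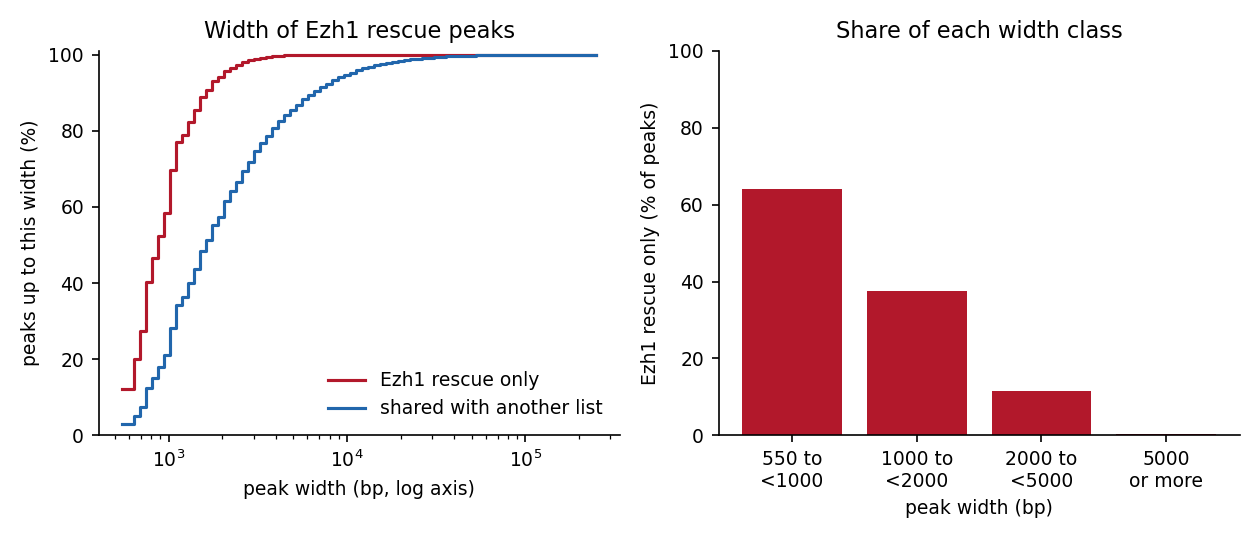
Left, share of peaks (%) up to each width (bp, log axis) in the Ezh1-rescue-only and the shared peaks. Right, share of Ezh1 rescue peaks (%) in each width class (bp) that met the rule, which was 64.0% in the narrowest class and 0.454% in the widest.

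The 5 widest lay at different kinds of loci. The widest spanned 14350 bp at chr4:137527001-137541350, 5.86 kb from Ece1, the endothelin-converting enzyme gene, and stopped 0.870 kb short of the nearest wild-type peak. A peak of 13150 bp at chr19:22629351-22642500 lay in an intron of Trpm3, a cation channel gene, 0.205 kb from a wild-type peak. A peak of 9600 bp at chr6:6182001-6191600 lay 14.8 kb from Slc25a13, a mitochondrial aspartate-glutamate carrier gene, and 2.04 kb from a wild-type peak. These 3 were thus close to a peak of an experiment 1 wild-type list, made with another antibody and platform. To the 2 experiment 2 wild-type lists their gaps were longer, 6.15 and 37.8 kb for the widest. They were 99.8 and 181 kb for the Trpm3 peak, and 9.80 and 147 kb for the peak near Slc25a13. A peak of 8800 bp at chr14:56844901-56853700 covered Gzmc, a granzyme gene, and was 39.7 kb from any wild-type peak. The last, 7900 bp in an intron of Gm765 at chr6:98231501-98239400, was 29.0 kb from a wild-type peak and 4.75 kb from an Ezh2 rescue peak.

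The edge of the rule was not sharp. Just inside it, 857 Ezh1-rescue-only peaks lay within 50 bp of a peak of another list, 98 of them touching it, and their median width was 900 bp. Just outside it, 672 shared peaks overlapped other lists by 50 bp or less, also with a median width of 900 bp. Of the shared peaks, 20812 met only 1 of the 5 lists. That list was replicate 2 of the experiment 1 wild type for 9200 peaks, the Ezh2 rescue for 6108, and replicate 1 of the experiment 1 wild type for 4083. The experiment 2 wild-type replicates accounted for 844 and 577. The lists differed in length, with 64240 distinct autosomal peaks in the Ezh2 rescue, 18229 and 13384 in the experiment 2 wild type, and 81153 and 80524 in the experiment 1 wild type. Among peaks met by 1 list only, most were thus met by an experiment 1 list, made with another antibody and platform. The part of antibody and platform in the choice of peaks was not tested.

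Ezh1-rescue-only peaks lay close to regions that carried the mark in wild-type cells. The median gap to the nearest peak of the 4 wild-type lists was 3.77 kb (quartiles 1.18 and 14.0 kb). Of the Ezh1-rescue-only peaks, 22.1% were within 1 kb and 56.0% within 5 kb, against 6.21% and 15.1% of the autosomal bases outside wild-type peaks. These measures are unlike, since a peak counts by its nearer end and a base by its own position. The shares of bases are thus a low standard for peaks. At the other end, 6.38% were 100 kb or more away. The gap was shortest to the long lists. Its median was 8.60 kb to the Ezh2 rescue peaks. To the experiment 2 wild-type peaks it was 44.8 and 75.9 kb, and to the experiment 1 wild-type peaks 7.84 and 6.35 kb. To the shared peaks of the Ezh1 rescue list itself the median gap was 4.25 kb, and 24.2% of the Ezh1-rescue-only peaks had one within 1 kb.

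**Figure D2:**
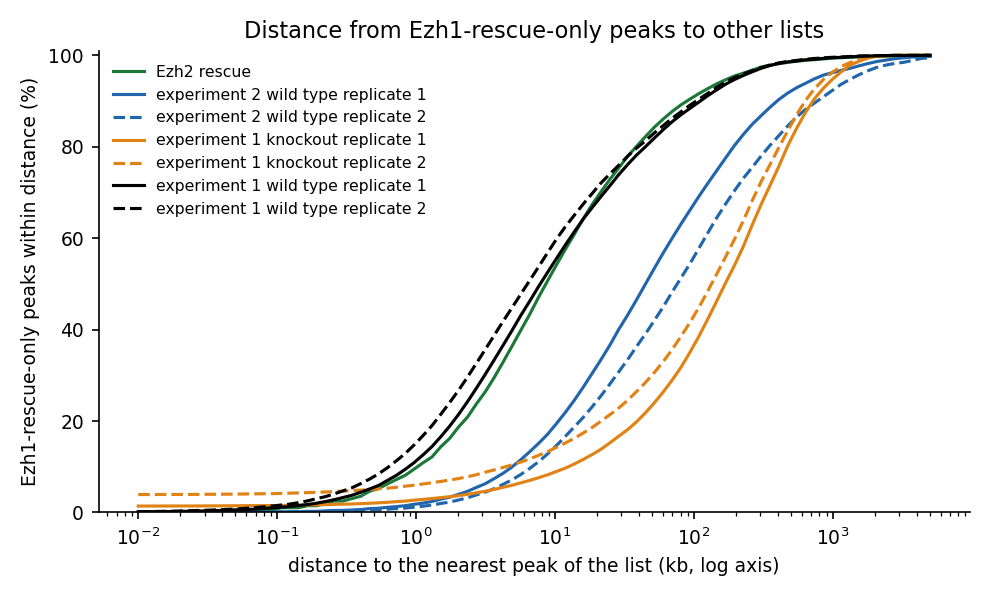
Share of Ezh1-rescue-only peaks (%) within a given distance (kb, log axis) of the nearest peak of each list, with 1 line per library. The Ezh2 rescue and experiment 1 wild-type lines run together with medians of 6.35 to 8.60 kb, while the knockout lines have medians of 134 and 168 kb.

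The peaks close to a wild-type peak differed in several features from those far away. Those under 1 kb from a wild-type peak had a median width of 900 bp, a median GC content of 45.4% and a gene-body share of 33.4%. Those at 100 kb or more had a median width of 750 bp, a median GC content of 42.7% and a gene-body share of 21.8%. In the 3 classes between them the gene-body share was 34.4%, 32.6% and 27.7%. From the near to the far class, the median distance to a protein-coding TSS was 39.7, 41.8, 54.6, 82.2 and 171 kb. The 2890 distant peaks were therefore a narrower, AT-richer and more gene-poor group.

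The most distant peaks lay on 2 chromosomes. On chromosome 15, a peak at chr15:19929901-19930900 was 4593 kb and its neighbour at chr15:19933001-19933550 was 4590 kb from any wild-type peak, with Acot10, an acyl-CoA thioesterase gene, as the nearest gene at 664 and 661 kb. Peaks of both experiment 1 knockout lists lay 9.35 to 16.1 kb from them. On chromosome 7, a peak at chr7:46701501-46702500 lay at the Gm5590 promoter, 3896 kb from a wild-type peak. A peak at chr7:46762551-46763200 was 9.94 kb from the zinc finger gene Zfp619. A peak at chr7:46911901-46912450 had an Ezh2 rescue peak 1.30 kb away and a knockout peak of experiment 1 replicate 2 at 1.06 kb. The 5 peaks farthest from wild-type peaks thus had an experiment 1 knockout peak 1.06 to 25 kb away, while the median gap over all Ezh1-rescue-only peaks was 168 and 134 kb to those lists.

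Ezh1-rescue-only peaks were present on every autosome. They made up 34.2% of the Ezh1 rescue peaks on chromosome 19, the lowest share, and 46.9% on chromosome 16, the highest. Per Mb their number was between 14.4 on chromosome 4 and 22.4 on chromosomes 9 and 11. In 1-Mb bins the median was 14 (quartiles 4 and 27.75), and 278 of 2374 bins held none. Across bins the counts of Ezh1-rescue-only and shared peaks went together (Pearson r = 0.57 over 2374 bins of 1 library, which share its depth), as a description. Where wild-type peaks covered under 1% of a bin, 80.8% of the Ezh1 rescue peaks met the rule, and where they covered 20% or more, 25.6% did. The rule leaves out every peak that meets a wild-type peak. Its construction thus links these shares, and those per chromosome, to wild-type cover. The median number per bin was 1 where wild-type peaks covered under 1%, 26 where they covered 10% to 20% and 20.5 above that, so most Ezh1-rescue-only peaks lay in regions that also held wild-type peaks.

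Many Ezh1-rescue-only peaks lay in runs. Peaks of the 5 other lists divide the autosomes into 110975 gaps, of which 22129 held an Ezh1-rescue-only peak and 12914 held exactly 1. Gaps with 5 or more numbered 1648 and held 29.2% of all Ezh1-rescue-only peaks, 313 held 10 or more and 62 held 20 or more. A longer gap has more room for such peaks. The median length was 8.88 kb in gaps with an Ezh1-rescue-only peak and 1.00 kb in gaps without. The 10 gaps with the most covered bases, chosen after their values were seen, were all free of Ezh1-rescue-only peaks that met a knockout peak. Over all Ezh1-rescue-only peaks 4.16% met one, and the share of all gaps free of such peaks was not computed. Of the 10, 6 held no protein-coding gene, while 58.4% of autosomal bases and 66.0% of all Ezh1-rescue-only peaks were intergenic. The share of all gaps without a protein-coding gene is not given here.

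The gap with the most such peaks, chr8:59213308-59678021, held 79 of them over 76.4 kb between Fbxo8 and Hand2, with Hand2, which drives growth of the heart and the limb buds, 122 kb away. On chromosome 11, 54 peaks covered 69.8 kb between Meis1, a homeobox partner of HOX proteins 147 kb away, and Spred2. On chromosome 1, 39 peaks filled 45.4% of a 123-kb gap at chr1:139030101-139153050, whose nearest gene on the left was Nr5a2, a nuclear receptor gene, 173 kb away. Among the 10 gaps this was the highest share. On chromosome 13, 41 peaks filled 34.7% of the gap chr13:47871201-48049148, which held no protein-coding gene.

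A pair of neighbouring gaps on chromosome 15, chr15:9178486-9516500 and chr15:9517101-10002150, held 50 and 55 Ezh1-rescue-only peaks. They contained Ugt3a1 and Ugt3a2, genes of UDP-glycosyltransferases, Capsl, a calcyphosine-like gene, Il7r, the interleukin-7 receptor gene of lymphocytes, and Spef2, a sperm flagellar gene. The 1-Mb bin around them, chr15:9000001-10000000, held 108 Ezh1-rescue-only peaks and 2 shared ones, with 0.3001% of its bases under wild-type peaks. Over all bins with under 1% of bases under wild-type peaks, 80.8% of Ezh1 rescue peaks met the rule. On chromosome 12, a gap at chr12:75400807-75889150 held 58 peaks over Dbpht2, Gm11043 and Gm11042. The 1-Mb bin with the most, chr18:54000001-55000000, held 137 Ezh1-rescue-only and 51 shared peaks around Csnk1g3, a casein kinase gene.

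By the position of the midpoint, most Ezh1-rescue-only peaks were intergenic. The intergenic share was 66.0% (95% Wilson interval 65.6% to 66.4%), against 60.9% of shared peaks and 58.4% of autosomal bases. The promoter share, within 2500 bp of a protein-coding TSS, was 3.70% (3.53% to 3.88%), against 6.42% of shared peaks and 4.14% of bases. Introns held 28.4% of the Ezh1-rescue-only peaks, against 30.2% of shared peaks and 34.9% of bases. Exons held 1.92%, against 2.44% and 2.49%. The Ezh1-rescue-only peaks were thus the farther set from genes, with a median of 52.2 kb to the nearest protein-coding TSS, against 33.7 kb for shared peaks. Within the class under 1000 bp the promoter share was 3.66% in Ezh1-rescue-only and 5.21% in shared peaks, and the median TSS distance was 53.5 against 38.4 kb, so the order was the same at like width.

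**Figure D3:**
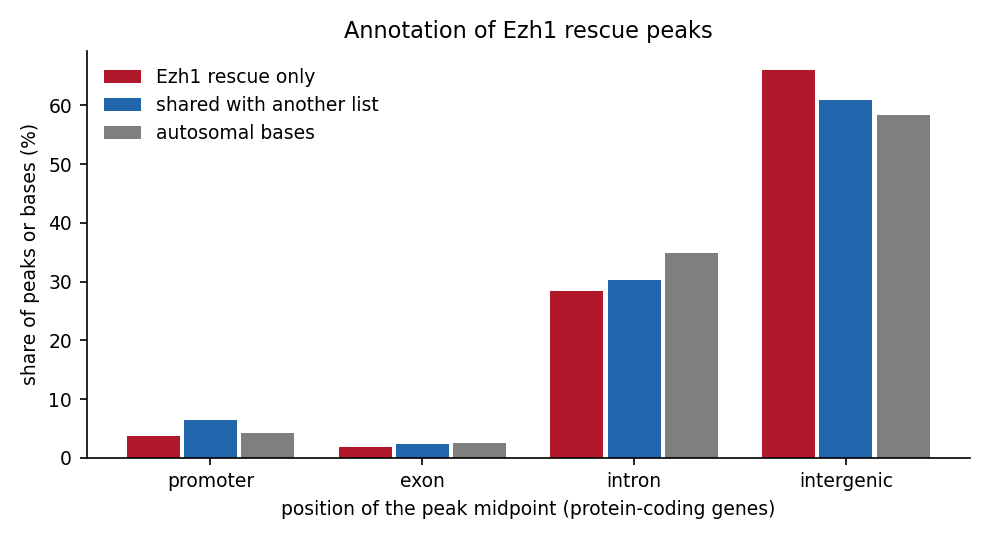
Share (%) of Ezh1-rescue-only peaks, shared Ezh1 rescue peaks and autosomal bases by position relative to protein-coding genes, each peak placed by its midpoint. The intergenic bars stand at 66.0%, 60.9% and 58.4%.

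At 800 of 21418 autosomal protein-coding promoters an Ezh1-rescue-only peak was present and no peak of the wild-type and Ezh2 rescue lists. A shared Ezh1 rescue peak also reached 54 of these promoters. By unique symbol these were 799 of 21281, or 3.75%. The median share of the promoter window under them was 18% (quartiles 12% and 30%), and the TSS itself was covered in 161 genes (20.1%). An Ezh1-rescue-only peak was present at 1676 promoters in all. Of the 800 promoters, 87 also held a knockout peak, a count given without the share over all promoters.

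The 10 promoters covered most by Ezh1-rescue-only peaks belonged to genes with unlike roles. Tm7sf4, which encodes the DC-STAMP protein of osteoclast and dendritic cell fusion, had 91.0% of its promoter under Ezh1-rescue-only peaks. Its gene body was 82.1% covered by 6 Ezh1-rescue-only peaks, and other lists reached 1.37% of it. Ston2, an endocytic adaptor gene, had 74.5% of its promoter under Ezh1-rescue-only peaks and 89.0% under all Ezh1 rescue peaks. Osbp2, an oxysterol-binding protein gene, had 72.9%, while other lists covered 63.8% of its gene body. Mcpt9, a mast cell protease gene, had 82.0%. These 4 promoters had 0% under each knockout list. Their 0% under the wild-type and Ezh2 rescue lists was a condition of the choice.

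In 4 others of the highest 10, an experiment 1 knockout list also reached the promoter. Sod3, the extracellular superoxide dismutase gene, had 86.0% under Ezh1-rescue-only peaks and 29.8% under peaks of knockout replicate 2. Eml2, a microtubule-associated protein gene, had 85.0% and 11.9%. Emid2, which encodes a collagen, had 74.4% and 29.5%. Gm8597 had 75.9%, with 12.5% under knockout replicate 1 and 21.1% under replicate 2. These promoters therefore carried listed H3K27me3 peaks in Ezh2-deleted cells without a rescue as well. Sod3 and Emid2 lie on chromosome 5, where knockout peaks covered 9.50% of the bases, against 2.86% of autosomal bases. Gm11043 (86.5%) and 1700086L19Rik (78.4%), which are neighbours on chromosome 12, completed the 10.

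A cluster of immune protease genes on chromosome 14 held many Ezh1-rescue-only peaks. It was chosen after its values were seen, because Mcpt9 and Gzmc were both named by the rules above. The 321 kb from Cma1 to Gzmb, chr14:56560290-56881097, hold 14 genes of mast cell proteases, cathepsin G and granzymes, which are secreted by mast cells, neutrophils and cytotoxic lymphocytes. Of 89 Ezh1 rescue peaks there, 72 were Ezh1-rescue-only, while over all autosomes 40.5% were. By construction of the rule this share is higher where wild-type peaks cover little. It was 80.8% in 1-Mb bins with under 1% of bases under wild-type peaks, and 58.5% in bins with 1% to 5%. All Ezh1 rescue peaks covered 143 kb, of which 99.9 kb, or 31.2% of the cluster, were Ezh1-rescue-only. The Ezh2 rescue covered 4.30 kb, the 4 knockout lists 0 kb each, the experiment 2 wild-type lists 0 kb each and the experiment 1 wild-type lists 7.27 and 14.4 kb. The Ezh1 rescue list thus covered more of the cluster than any other list did. It was also the largest list by autosomal bases, with 253 Mb, so the rank alone does not set the cluster apart. Autosomal cover was 139.5 and 174.4 Mb for the experiment 1 wild-type lists, and 80.3 Mb for the Ezh2 rescue list. The experiment 2 wild-type lists covered 14.9 and 11.2 Mb, and each knockout list 56.6 Mb or less. The lead over the next list was wider in the cluster, 143 against 14.4 kb, but was not tested.

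Within the cluster, Gzmc, Gzmb and Gzmf, all granzyme genes, had 100%, 95.4% and 89.4% of the gene body under Ezh1-rescue-only peaks and 0% under the 5 other lists. Mcpt1 had 79.4% and Gzmg 68.9%, also with 0% under the others. Ctsg, the cathepsin G gene, had 43.1%. Gzme and Gzmd went the other way, with 0% under Ezh1-rescue-only peaks and 48.1% and 37.9% under the 5 lists together. In all, 10 of the 14 genes held an Ezh1-rescue-only peak in the body and 7 had one at the promoter with no other-list peak there. Granzyme and mast cell protease genes are near-identical to each other in places, so peaks there are uncertain. The part of reads that match several copies was not tested.

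Gene bodies with the most bases under Ezh1-rescue-only peaks were long. Over all protein-coding symbols, 16.9% held an Ezh1-rescue-only peak in the body. Genes with such a peak had a median length of 41.8 kb, against 15.5 kb over all protein-coding genes, and 336 genes held 10 or more. Trpm3 had the most covered bases, 142 kb in 97 peaks over its 851 kb, while the 5 other lists covered 130 kb of it. Odz4 held 88 peaks over 101.25 kb, against 182 kb under the other lists. Slit3, a secreted guidance cue gene, held 72 peaks over 73.2 kb, against 120 kb. All 3 were genes that other lists also marked.

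Other lists also marked the rest. Rims2, of the presynaptic active zone, had 78.6 kb under Ezh1-rescue-only peaks and 127 kb under other lists. Kirrel3, an immunoglobulin superfamily adhesion gene, had 73.6 and 176 kb. Fras1, an extracellular matrix gene of the skin, had 67.3 and 96.4 kb. Galntl4, a glycosyltransferase gene, had 62.9 and 81.5 kb. Thsd4, an ADAMTS-like matrix gene, had more under Ezh1-rescue-only peaks, as did Trpm3, with 68.3 and 57.6 kb. A930011G23Rik had 96.5 and 102 kb. Gm20388, an annotated locus of 4435 kb that runs over many other genes, had 119 kb, and its value is not that of a single gene. Promoters of these genes ranged from bare to fully marked. The Fras1 promoter, for example, was covered over its full window by the Ezh1 rescue list, 40.0% by that of the Ezh2 rescue, 0% by both experiment 2 wild-type lists, and 78.6% and 82.4% by the experiment 1 wild-type lists. The A930011G23Rik promoter was 19% covered in the Ezh1 rescue and 0% in every other library.

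Few genes carried Ezh1-rescue-only peaks with no other-list peak anywhere in the body, 671 of the 3620 genes with such a peak in the body. Ranked by covered bases, Msrb2, a mitochondrial methionine sulfoxide reductase gene, came first with 7 peaks over 19.04 kb, which is 80.9% of the body, and 83.3% of the promoter. Capsl had 10 peaks over 9.40 kb. Gucy1b2, a guanylate cyclase subunit gene, had 11 over 8.25 kb. Trpv5, the calcium channel gene of the kidney tubule, had 8 over 7.45 kb and 30.0% of its promoter. Pbld1 had 6 peaks over 39.7% of the body. Each of these bodies was free of wild-type and Ezh2 rescue peaks.

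Among 23 gene lists, the share of genes with an Ezh1-rescue-only peak and no other-list peak at the promoter was between 0% and 7.69%, around the 3.75% over all autosomal protein-coding symbols. The other lists spread more widely over the same genes. A wild-type or Ezh2 rescue peak lay at 29.5% of all promoters, at 83.9% of those of mesoderm and endoderm transcription factors and at 0% of those of housekeeping genes. A gene with an other-list peak at the promoter cannot be counted, so a list with many of them has few genes left. Among promoters free of the 5 lists, an Ezh1-rescue-only peak was present at 799 of 14998 (5.33%) over all genes. By the same measure, the highest shares were 2 of 8 blood and endothelial markers and 2 of 9 mesoderm and endoderm factors. Next came 1 of 5 epithelial genes and 2 of 13 neural and ectodermal factors. Lower shares included 1 of 14 secreted signals, 1 of 14 HOX cluster genes, 1 of 22 fibroblast genes and 35 of 965 olfactory receptors. Such a peak was present at 0 of 27 housekeeping, 0 of 25 cell cycle and 0 of 17 Polycomb complex genes. Most of these counts are small, and they were not tested.

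**Figure D4:**
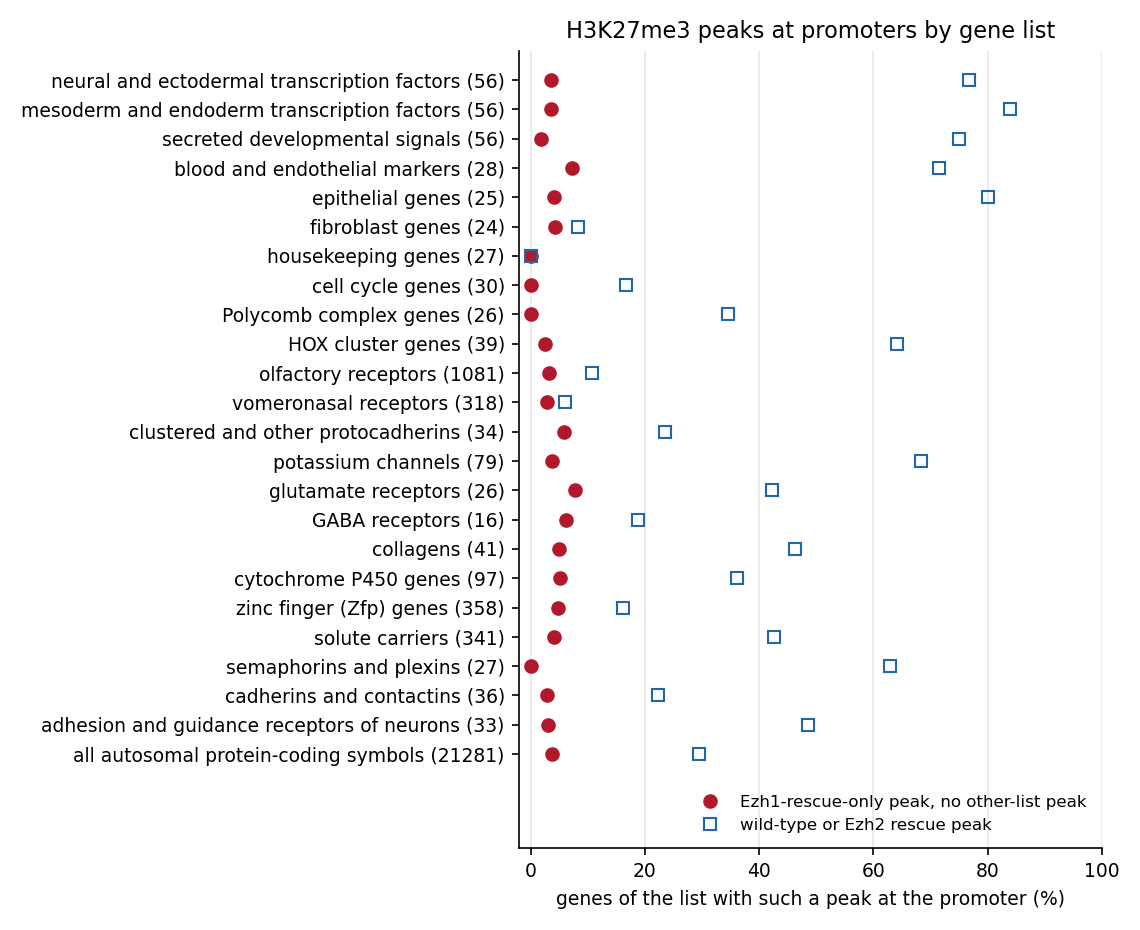
Share of the genes of each list (%) with an Ezh1-rescue-only peak and no other-list peak at the promoter (circles) and with a wild-type or Ezh2 rescue peak there (squares), with the number of genes in brackets. The circles lie between 0% and 7.69% in all lists, and the squares between 0% and 83.9%.

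Transcription factors of development were mostly marked in the other lists already. Of 56 neural and ectodermal factors, 2 had an Ezh1-rescue-only and no other-list peak at the promoter and 43 had an other-list peak. Those 2 were Phox2a, of noradrenergic neurons, with 22.0% of the promoter covered, and Sox2, of neural and pluripotent cells, with 11%. Of 56 mesoderm and endoderm factors the 2 were Meox1, of the somites, with 37.8% and Myf5, of the myogenic lineage, with 25%. Of 39 genes of the HOX clusters, Hoxd1 alone had one, over 21.0% of its promoter, while 25 had an other-list peak. The choice of these promoters fixed their 0% under the wild-type and Ezh2 rescue lists. The 4 knockout lists, which the rule did not use, also covered 0% of each, and 2.86% of autosomal bases together.

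Secreted signals, blood and endothelial markers and epithelial genes gave the same picture, while few fibroblast genes were marked in the other lists. Gdf5, a growth factor gene of joints, was 1 of 56 secreted signals, with 17% covered, and 42 of that list had an other-list peak. Runx3, of lymphocytes and sensory neurons, with 23.0%, and Vwf, the von Willebrand factor gene of endothelium, with 12%, were the 2 of 28 blood and endothelial markers. Cdh1, the E-cadherin gene, was 1 of 25 epithelial genes, with 16.0%, and 20 of that list had an other-list peak. Of 24 fibroblast genes, which mark the cells' own type, Thy1 had an Ezh1-rescue-only peak over 2.34% of its promoter and 2 had an other-list peak. No expression was measured in these libraries, so the cell type rests on the labels.

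Receptor and channel genes came next. Of 1081 olfactory receptors, 35 (3.24%) had an Ezh1-rescue-only and no other-list peak at the promoter, Olfr691 the most with 38.6%, and 116 had an other-list peak. Of 318 vomeronasal receptors 9 did (2.83%), Vmn2r90 the most with 71.9%, and 19 had an other-list peak. Olfactory and vomeronasal receptor genes are clustered families of similar sequence, so both counts are uncertain. Of 26 glutamate receptor genes, Gria2, an AMPA receptor subunit gene, had 44.0% of its promoter and 27 peaks over 32.4 kb of its body, and Grid1 had 0.800%, beside 4.34% and 35.4% under the experiment 1 knockout lists. Kcnj3, an inwardly rectifying potassium channel gene of neurons and heart, had 25.6% and led 3 of 79 potassium channels. Gabrr3 had 37.0% and was the 1 of 16 GABA receptors.

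The remaining families gave shares of the same size. Of 41 collagens, Col17a1, of the hemidesmosome, had 31.0% and Col6a6 12%. Of 97 cytochrome P450 genes 5 met the promoter rule, among them Cyp4f18 with 36.5% and Cyp19a1, the aromatase gene, with 33.3%. Of 358 zinc finger genes 17 did, Zfp429 the most with 58.0%. Of 341 solute carriers 14 did, among them Slc9a10, a sperm sodium-proton exchanger gene, with 72% and Slc2a9, a urate transporter gene, with 46.0%. Pcdhb14 and Pcdhb11 were the 2 of 34 protocadherins, and Slitrk3 was the 1 of 33 adhesion and guidance receptors. No housekeeping, cell cycle or Polycomb complex gene met the rule, nor did a semaphorin or plexin, although 17 of 27 semaphorins and plexins had an other-list peak at the promoter.

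In base composition narrow Ezh1-rescue-only peaks were close to shared peaks of the same width. Their median GC content was 45.2% (quartiles 42.1% and 48.1%), against 45.6% in shared peaks and 41.7% in 1-kb tiles of the autosomes. Under 1000 bp the medians were 45.0% in Ezh1-rescue-only and 44.5% in shared peaks. The median density of CpG was 0.857 per 100 bp, against 0.947 in shared peaks and 0.700 in tiles. Both sets were thus richer in G and C than the genome.

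A CpG-island-like window (200 bp with a GC content of at least 50% and a CpG observed-to-expected ratio of at least 0.6) was present in 3594 Ezh1-rescue-only peaks, or 7.94%, against 20.1% of shared peaks and 6.63% of tiles. A wider peak holds more windows. Under 1000 bp the shares were 5.62% in Ezh1-rescue-only and 5.09% in shared peaks, and from 2000 to under 5000 bp they were 21.5% and 24.8%. Among peaks centred at promoters the share was 18.1% in Ezh1-rescue-only and 45.8% in shared peaks, whose median widths were 850 and 1950 bp. At 5000 bp or more they were 38.1% (16 of 42 peaks) and 61.1%, with median GC contents of 44.9% and 47.4%. The shares were thus close under 1000 bp and lower in Ezh1-rescue-only peaks in the widest class.

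Simple repeats followed width in the same way. A CA dinucleotide run of at least 20 bases, read as CA or TG on either strand, was present in 9.74% of Ezh1-rescue-only peaks, 22.9% of shared peaks and 9.48% of tiles. Under 1000 bp the shares were 6.7% and 6.58%. A GA run of that length (GA or TC) was present in 4.33% of Ezh1-rescue-only peaks, against 12.8% of shared peaks and 4.24% of tiles. A run of 20 A or T was present in 1.48%, against 5.36% and 2.61%.

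**Figure D5:**
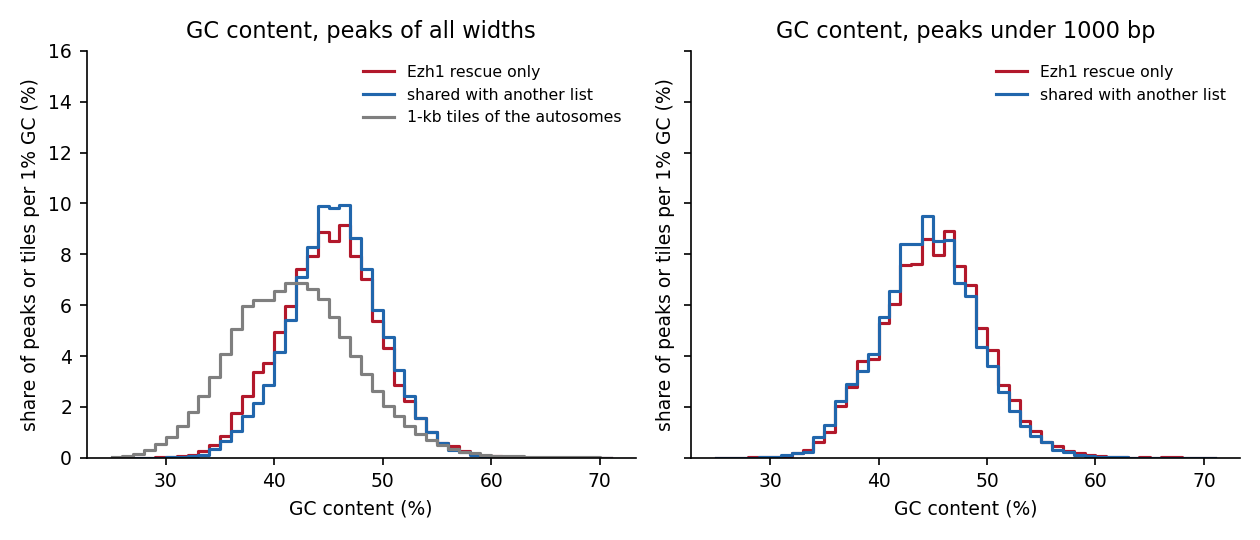
Share of peaks or tiles (%) in each 1% step of GC content (%), for peaks of all widths with 1-kb tiles of the autosomes (left) and for peaks under 1000 bp (right). The Ezh1-rescue-only and shared curves nearly coincide, with medians of 45.2% and 45.6% on the left, and the tiles lie lower with a median of 41.7%.

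The knockout lists, which the rule left unused, met few Ezh1-rescue-only peaks. A peak of any knockout list met 1886 of them, or 4.16% (95% Wilson interval 3.98% to 4.35%), against 5.83% of shared peaks and 5.15% of all Ezh1 rescue peaks. Knockout replicate 1 of experiment 1 met 628 (1.39%), against 2.45% of shared and 2.02% of all Ezh1 rescue peaks, and replicate 2 met 1758 (3.88%), against 5.26% and 4.7%. Both met 505 of the same peaks. In experiment 2, replicate 1 met 0, against 22 shared peaks and 0.0197% of all, and replicate 2 met 6, against 244 shared peaks and 0.224% of all. The total rests on 1 library, since without replicate 2 of the experiment 1 knockout the share was 1.40%.

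By bases, the overlap was no larger than the extent of the knockout lists over the genome. Knockout peaks covered 2.20% of the bases of Ezh1-rescue-only peaks, 2.40% of the bases of shared peaks and 2.86% of autosomal bases. Per library these were 0.575%, 0.575% and 1.01% for replicate 1 of experiment 1, and 2.02%, 2.05% and 2.37% for replicate 2. Under 1000 bp, 4.14% of Ezh1-rescue-only and 4.51% of shared peaks met a knockout peak. Chromosome 5 stood apart. There 422 of 3172 Ezh1-rescue-only peaks met a knockout peak (13.3%), against 3.48% on the other autosomes, and knockout peaks covered 9.50% of the chromosome. Shared peaks had the same excess, with 18.7% on chromosome 5 and 4.92% off it. What sets chromosome 5 apart in the knockout lists was not tested.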

How the data were processed

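The 10 libraries with a list of H3K27me3 peaks were analysed, with groups and replicate numbers taken from the sample labels. The 2 input samples have no list and were not analysed here. Per the labels and the methods of the study, chromatin was fragmented with micrococcal nuclease, reads were mapped on mm9, duplicates were removed, libraries were down-sampled to a common read number, coefficients were applied to the knockout and the Ezh1 rescue, and peaks were called per sample against input. The sources used here do not say whether the coefficients act on the deposited peaks. The methods call the mapped reads unique for both platforms but also state that Bowtie2 gave 1 location to reads with several, so the treatment of such reads in experiment 2 is unclear. A coefficient or a change in depth changes how many weak peaks pass the caller, and so which peaks appear in 1 list only. Tools named in the processing notes of the submitters are MACS2 2.0.10 and HOMER 3.17, with Bowtie2 2.1.0 and Bowtie 0.12.8 for alignment, and SAMtools. In the deposited files a line gives only where a peak begins and ends, without score, height or p-value. All Ezh1 rescue positions are multiples of 50 bp.

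Of 114540 Ezh1 rescue lines, 2438 off the autosomes and 328 duplicates were left out. Overlap of 1 bp with the 5 lists set the rule. Genome NCBIM37 (mm9) and the GENCODE M1 annotation gave base composition and genes, and a promoter was 2500 bp on either side of a protein-coding TSS. The genome given carries no repeat masking, so the repeat share was not computed. Named regions were the 5 widest and the 5 farthest from a wild-type peak. Named genes were the 10 with the highest promoter share, the 10 with the most covered bases in the body and up to 3 per list. Runs, the chromosome 14 cluster and the genes with no other-list peak in the body were chosen after their values were seen. The peaks, the rule and the gene lists were chosen with earlier results of these data known. The overlap and composition steps were tested on 1600 simulated regions, with 0 mismatches. Alternatives were other overlap rules, a minimum width, merging of near peaks, all annotated genes and leaving out each wild-type or knockout replicate. Leaving out the Ezh2 rescue list was added after the data were seen. Python 3.11.15, NumPy 2.4.6, pandas 2.3.3 and matplotlib 3.10.9 were used.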

Additional observations from a re-analysis of the deposited data

How the results depend on the processing

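No paired analysis was possible because no result comes from a test and the Ezh1 rescue has 1 library. Each value below was recomputed under other settings, and 39 of 90 stayed within the counting interval or, for counts, within 1.5 times. Leaving out each wild-type list or the Ezh2 rescue list (the last chosen after seeing the data) from the rule, or for the knockout share also each knockout list, gave 45863 to 54486 Ezh1-rescue-only peaks, a share of 41.0% to 48.7%, a median width of 850 to 900 bp, a median gap to a wild-type peak of 3.55 to 4.70 kb, a median GC content of 45.0% to 45.5%, a gene-body share of 32.0% to 32.7%, a share meeting a knockout peak of 1.40% to 4.35% and 822 to 1104 genes. With the knockout lists added to the rule, the share was 38.8% and the GC content 45.1%. When a peak counted as shared only with 50% of it under other lists, the share was 56.2%, the width 950 bp, the gap 1.78 kb, the GC content 45.3%, the gene-body share 32.9% and the knockout share 4.47%. When any peak within 1000 bp counted as shared, the share was 29.2%, the gap 6.76 kb, the GC content 44.9%, the gene-body share 31.1% and the knockout share 3.98%. Within 5000 bp, 16347 peaks met the rule, with a share of 14.6%, a width of 800 bp, a gap of 19.9 kb, a GC content of 44.2%, a gene-body share of 28.1% and a knockout share of 3.63%. With peaks of at least 1000 bp only, there were 16333, with a share of 24.5%, a width of 1250 bp, a gap of 2.90 kb, a GC content of 45.5% and a gene-body share of 33.1%. With peaks under 1000 bp apart merged there were 27282, with a share of 42.9%, a gap of 6.41 kb, a GC content of 44.9%, a gene-body share of 30.2% and a knockout share of 4.71%. With all annotated genes the gene-body share was 34.9% and 1410 genes met the promoter rule. The number of Ezh1-rescue-only peaks and their distance to wild-type peaks thus depended on the overlap rule, by its own construction, while GC content stayed between 44.2% and 45.5%. With 1 library per rescue, no peak heights and no read counts at single peaks, whether peaks absent from a list lie just under the caller's threshold was not tested.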

Other observations

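The order of the lines in the Ezh1 rescue list goes with the rule, and the sources used here do not say what it stands for. Of the first decile of the lines, 2.77% of the autosomal peaks were Ezh1-rescue-only with a median width over all its peaks of 6300 bp, and of the last decile 65.9%, with a median of 650 bp. Among peaks under 1000 bp the share was 37.5% of 8 peaks in the first decile, 46.7% of 152 in the next and 69.2% of 9364 in the last.

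Only 6 Ezh1-rescue-only peaks met a peak of the shortest lists, the experiment 2 knockout. The widest of them, chr2:19350301-19353600, spanned 3300 bp with 700 bp under a peak of replicate 2, and lay 13.7 kb from Ptf1a, a transcription factor gene of pancreas and cerebellum, and 1.44 kb from a wild-type peak. A 1150-bp peak at chr14:64339301-64340450 lay in an intron of Xkr6. The other 4 were intergenic, nearest to Lcn14, Mterf, Gm8112 and Kcnj6.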
